A study of Mus musculus with 28 samples.

Results

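The genes described here are the C/D box and H/ACA box snoRNA genes of mouse embryonic stem cells (mESCs). They were taken as every gene of the chromatin RNA count table whose symbol starts with Snord or Snora, with the U3 copies (Rnu3) left out. This gave 114 of the 27179 genes of that table (0.419%), of which 76 are C/D box genes (Snord) and 38 are H/ACA box genes (Snora). Total RNA values were present for 46 of the 114, made up of 25 C/D and 21 H/ACA box genes. The cells were of the E14 line in all samples, and the study asked how FACT, the histone chaperone formed by SSRP1 and SUPT16, acts on chromatin and transcription in them. Chromatin RNA is the RNA that stays with the chromatin pellet after fractionation in the presence of α-amanitin; it was sequenced from 2 libraries of E14 cells with no treatment labelled. Total RNA depleted of ribosomal RNA was sequenced with ERCC spike-ins from 4 control libraries (cells given a scramble shRNA) and 4 Ssrp1 KD libraries (cells given a combination of Ssrp1 shRNAs). Puromycin (2 µg/ml) was applied 48 h after transfection and cells were collected 24 h later, so that control and KD cells went through the same selection. SSRP1 and SUPT16 ChIP-seq peaks of mESCs were used for position.

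SnoRNAs are short nuclear RNAs that guide the chemical modification of ribosomal and spliceosomal RNA by base pairing. C/D box snoRNAs bind fibrillarin, NOP56, NOP58 and NHP2L1 and direct 2′-O-methylation, and H/ACA box snoRNAs bind dyskerin, GAR1, NHP2 and NOP10 and direct the conversion of uridine to pseudouridine. Most are cut from the introns of host genes, often genes for ribosomal proteins or translation factors, or of long non-coding RNAs. A few, such as Snord118 (U8) and Snora73 (U17), act in the cleavage of precursor ribosomal RNA instead.

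The conserved boxes were read at the annotated genes, whose start and end matched RefSeq GRCm38.p6 (mm10) for 114 of 114. The D box, searched as CTGA in the last 20 bases, was found in 75 of 76 C/D box genes (98.7%), against 11.8% of windows of the same length just upstream of each gene. The C box, searched as TGATGA in the first 20 bases, was found in 26 of 76 (34.2%) and in 0 upstream windows. When the search was opened 20 bases before the annotated start, 50 of 76 (65.8%) held it, again with 0 upstream windows. The following C/D box genes are shown because they lead the chromatin libraries (Snord49a, Snord82, Snord2) or rose in Ssrp1 KD (Snord2, Snord96a). They lie at chr11:62603460-62603521 (Snord49a, plus strand), chr1:86356260-86356327 (Snord82, minus), chr16:23108953-23109020 (Snord2, plus) and chr11:48802033-48802109 (Snord96a, plus). Capitals mark the C box and the D box where the search found them.
Snord49a: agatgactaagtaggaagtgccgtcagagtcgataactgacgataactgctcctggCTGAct
Snord82: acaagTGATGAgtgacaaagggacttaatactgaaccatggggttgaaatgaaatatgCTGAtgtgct
Snord2: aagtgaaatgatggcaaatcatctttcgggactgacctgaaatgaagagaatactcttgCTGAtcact
Snord96a: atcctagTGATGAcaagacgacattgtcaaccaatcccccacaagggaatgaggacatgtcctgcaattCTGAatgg

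In H/ACA box genes, ACA was found in the last 10 bases of 36 of 38 (94.7%), against 7.89% of upstream windows. The H box, searched as ANANNA in the middle part of the gene, was found in 30 of 38 (78.9%), against 44.7% of upstream windows, since these letters occur often. A match describes letters only and is not a mapped site. The H/ACA box genes shown are the most abundant on chromatin (Snora68), the pair of near-identical U17 copies (Snora73a, Snora73b) and the second largest rise in Ssrp1 KD (Snora78). They lie at chr8:70895759-70895856 (Snora68), chr4:132352775-132352979 (Snora73a), chr4:132352322-132352526 (Snora73b) and chr17:24719676-24719832 (Snora78), each on the minus strand. Capitals mark ACA in all 4 and the H box in Snora73a and Snora73b. The search found no H box in Snora68 and Snora78. Snora73a and Snora73b share 198 of 205 bases (96.6% identity).
Snora68: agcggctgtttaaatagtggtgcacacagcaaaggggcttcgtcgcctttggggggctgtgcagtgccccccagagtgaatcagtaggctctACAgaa
Snora73a: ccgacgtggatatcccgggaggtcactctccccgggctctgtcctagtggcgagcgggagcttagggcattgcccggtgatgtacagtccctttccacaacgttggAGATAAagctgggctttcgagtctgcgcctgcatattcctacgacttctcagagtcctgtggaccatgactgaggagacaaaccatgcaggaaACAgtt
Snora73b: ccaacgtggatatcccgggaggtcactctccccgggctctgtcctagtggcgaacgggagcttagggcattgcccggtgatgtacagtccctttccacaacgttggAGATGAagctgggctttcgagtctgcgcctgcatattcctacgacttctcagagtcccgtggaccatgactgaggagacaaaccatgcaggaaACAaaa
Snora78: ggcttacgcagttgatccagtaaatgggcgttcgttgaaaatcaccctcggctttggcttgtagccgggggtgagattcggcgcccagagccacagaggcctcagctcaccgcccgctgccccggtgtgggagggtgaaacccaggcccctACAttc

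The chromatin libraries held 3441643 and 3393923 counts on genes. The total RNA libraries held 4602278 to 6680919 reads on genes in the controls and 9433193 to 19856032 in KD, as recovered from their values (below), so KD values rest on more reads. Ssrp1, the targeted gene, fell from 223 to 261 in the controls to 24.1 to 28.9 in KD (library-size-normalised reads), a log2 difference of -3.15 ± 0.07 (SE; limma adjusted p = 1.18e-22). Its partner Supt16 stood at 0.66 ± 0.06 and was not called. Marker genes of mESCs were present in every total RNA library, and 6 of 8 were called higher in KD, with a summed level of 1620 to 1738 in the controls and 4667 to 5154 in KD. For scale, 8.07% of all genes were called higher and 20.6% lower. Of 6 fibroblast markers, Dcn and Lum had no total RNA value and the other 4 were called lower (summed 45.3 to 56.3 in the controls, 7.32 to 9.28 in KD). Of 3 primitive endoderm markers 3 were called lower (30.8 to 47.0 against 9.52 to 12.7), and of 4 neural progenitor markers Tubb3 was called higher and Pax6 lower (summed 75.7 to 99.0 against 141 to 152). Tubb3 alone of these 4 had a log2 difference above 0, and their median was -0.66, so the summed rise is not a rise of the list. No marker list was at 0 in any of the libraries with values, these shifts run with KD, and their part in the results below was not tested. In bulk samples, fewer cells of a type and less RNA per cell cannot be told apart. The methods call the total RNA libraries biological replicates, and p-values measure only the spread between these samples of 1 cell line.

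On chromatin, C/D box snoRNAs made up most of the counts. They held 60.4% of all counts in library 1 (Wilson 95% interval 60.3 to 60.4) and 58.4% in library 2 (58.4 to 58.5), a mean of 59.4% ± 1.38 (SD, n = 2). H/ACA box genes held 3.00% in library 1 and 1.88% in library 2 (2.44% ± 0.794). These intervals cover counting error only, and the distance between the libraries is far wider than they are. There is no comparison group for these libraries, so the shares are a description of 2 libraries of one cell line. Leaving the 10 genes of highest count, of which 8 are C/D box genes, out of both the class counts and the total put C/D at 52.6% and H/ACA at 7.87%.

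The counts were held by few genes. Snord49a, a C/D box gene within 2410006H16Rik, had 688267 and 719152 counts, which is 20.0% and 21.2% of the libraries. The first 5 genes (Snord49a, Snord65, Snord82, Snord49b and Snord2) held 57.5% of the snoRNA counts, the first 10 held 74.95% and the first 20 held 88.1%. The 10 genes of highest count in the whole table include 8 snoRNA genes, and the first 100 include 73, split into 56 C/D and 17 H/ACA.

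**Figure D1:**
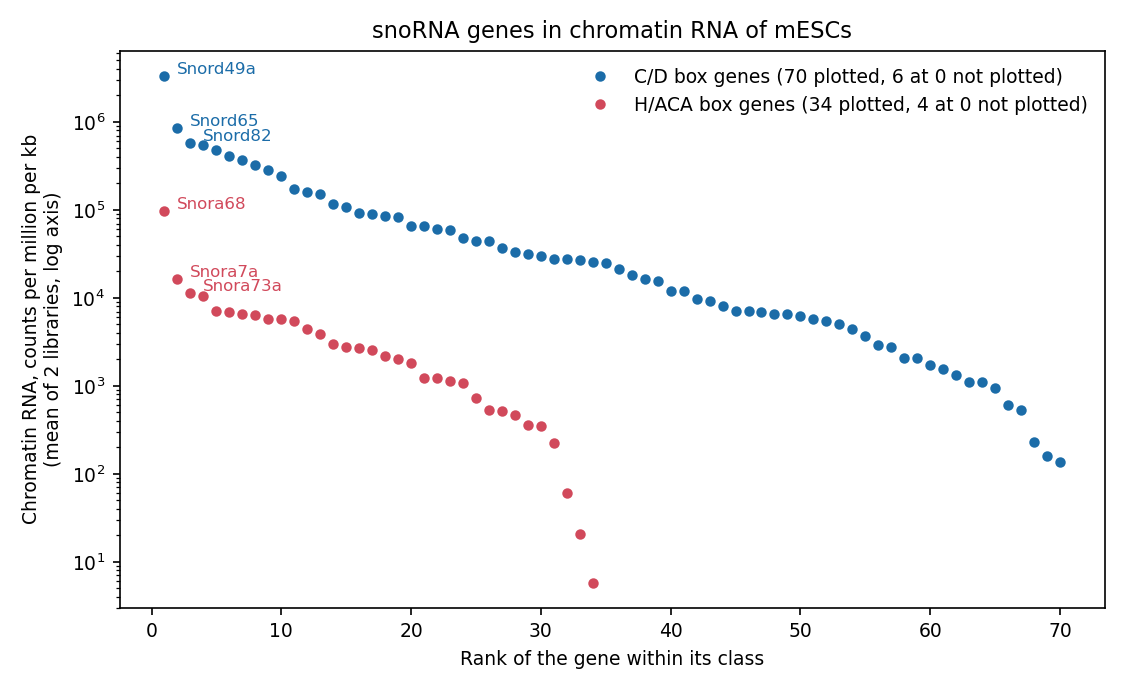
Chromatin RNA level of each snoRNA gene (mean of 2 libraries, counts scaled to 1000000 per library and per kb of gene length, log axis) against its rank within its class, 1 point per gene, with 70 C/D and 34 H/ACA box genes drawn and the 10 at 0 left out. Snord49a, at 3.32e+06, leads the C/D box genes, and Snora68, at 96154, leads the H/ACA box genes.

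Compared per length, C/D box genes stood above H/ACA box genes. The median level was 16054 CPM per kb (CPM, counts scaled to 1000000 per library) over the 76 C/D box genes and 1909 over the 38 H/ACA box genes, at median lengths of 68 and 120.5 bases. The highest C/D box levels were those of Snord49a (3.32e+06 per kb), Snord65 (8.52e+05), Snord82 (5.76e+05), Snord49b (5.43e+05) and Snord99 (4.74e+05), followed by Snord2, Snord95, Snord68, Snord96a and Snord55, which ranged from 4.10e+05 down to 2.42e+05. The highest H/ACA box gene, Snora68, reached 96154 per kb, and the next were Snora7a (16491), Snora73a (11314) and Snora61 (10586). Snora21, Snora28, Snora3, Snora16a, Snora75 and Snora34 ranged from 7025 to 5685. The 10 leading C/D box genes were therefore all above the highest H/ACA box gene.

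The libraries ranked the members alike. Over the 102 genes with at least 10 counts in both (70 C/D and 32 H/ACA), log2 CPM gave r = 0.994 and rho = 0.994, a correlation across genes, which are not replicates and share library and depth. Of these 102, 9 differed by more than 1.5-fold between libraries, and 7 of the 9 were H/ACA box genes (of 32) and 2 were C/D (of 70). Snora68 differed most, with 46127 counts in library 1 and 18475 in library 2 (a ratio of 2.46 in CPM), and it alone makes up 1.34% of library 1 and 0.544% of library 2. Snora30 (2.14), Snora34 (1.93) and Snora28 (1.78) followed, all higher in library 1. Among C/D box genes, Snord72 (1.58) and Snord65 (1.52) were the 2 beyond that limit.

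Of the 114 members, 10 had no count in either library and 2 H/ACA box genes had some but under 10 (Snora19 with 6 and 2, Snora47 with 2 and 3). A count of 0 allows up to 3 counts, that is 0.872 CPM in library 1 and 0.884 in library 2. Snord1a, Snord45c, Snord93, Snord7, Snora24 and Snora26 lie wholly within an exon of another gene on the same strand, so that reads there overlap more than 1 gene, and the sources used here do not say how the counting treats such reads. Snord116l1 and Snord116l2 are identical to Snord116 over 90 of 90 bases, and Snora73b is the near copy of Snora73a. Snora35, a brain snoRNA gene within Htr2c, was at 0 with neither feature. For these genes the level is not detectable in this table, which says nothing of whether the RNA is present. The counts of Snord14c and Snord14d (97.7% identical) and of Snord1b and Snord1c (97.4%) are uncertain, since reads can match both copies.

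Most snoRNA genes held more chromatin counts than the exons of their host. Of the 114 members, 107 lay within 77 host genes, of which 60 are protein-coding (81 members) and 23 encode ribosomal proteins named Rpl or Rps (32 members). All 99 members with a host and with counts stood above the exons of that host per length, with a median of 782-fold. In counts not divided by length, 95 of the 99 exceeded their host and 4 did not (Snord47, Snora15, Snord8 and Snora19). The exons of Gas5, the long non-coding host of Snord47, held 430505 and 426019 counts, or 12.5% and 12.6% of the libraries, against 15604 and 11364 for Snord47. Snord82 had 155557 and 112392 counts, whereas the exons of Ncl, the nucleolin gene that hosts it, had 339 and 441. The 3 snoRNA genes of 2410006H16Rik (Snord49a, Snord65, Snord49b) held 28.9% of all chromatin counts, and its exons had 33 and 56 counts. Members of the same host were close in some hosts and far apart in others. Over the 20 hosts with at least 2 members that had counts, the highest and lowest member differed in CPM by 1.10-fold (Snord110 and Snord57 of Nop56) to 137-fold (Snord2 and Snora81 of Eif4a2), with a median of 4.59-fold. The fold was below 3 in 7 hosts, Rack1 (1.14) among them, and above 10 in 7, Ncl (59.0) among them. No host was annotated for Snord118, Snord13, Snord104, Snord64, Snord89, Snord116l1 and Snord116l2.

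Designed oligonucleotides used by the study to deplete abundant RNAs from its NET-seq libraries, which were not analysed here, name many of the same genes. Of 19 listed, 16 match a member exactly (15 C/D and 1 H/ACA), and these 16 genes hold 49.2% of the chromatin counts. Of the first 10 members by count 8 have one, and of the first 20 there are 15.

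Each oligonucleotide ends at or past the last annotated base of its gene. A pair is shown because they differ in strand. That for Snord49a is the reverse complement of bases 29 to 62 of the gene printed above, and that for Snord82 has the same letters as bases 33 to 68. In all, 9 were antisense, each to a gene on the plus strand, and 7 were sense, each to a gene on the minus strand.
Snord49a: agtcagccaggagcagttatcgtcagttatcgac
Snord82: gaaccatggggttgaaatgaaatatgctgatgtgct

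In total RNA the same genes were low. Over the 46 members with values, the control mean ranged from 0.881 to 29.6 library-size-normalised reads with a median of 2.14, where 1 read is worth 0.136 to 0.179 in a control library. The table holds only genes with a value of at least 1 in at least 4 of the 8 libraries, so the 68 members without a value were low or uncounted, and they include Snord65, Snord82 and Snord49b. A value was present for 32.9% of C/D and 55.3% of H/ACA box genes.

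Set side by side, chromatin CPM exceeded control total RNA values for 46 of 46 members. The median log2 ratio (chromatin over control, 0.5 added to each) was 8.34, with a range of 3.73 to 16.11. It was 10.58 for C/D and 6.91 for H/ACA box genes. Over all 15384 genes the median was -3.16, and 122 genes were above 0. Snord49a had the highest ratio, with 205938 CPM on chromatin and 2.99, 1.55, 3.05 and 2.33 in the control libraries. Genes of at most 300 bp that are no members had a median of -2.07 (78 genes), and the members' host genes -4.08 (33 genes). For other short structured RNAs, such as spliceosomal RNAs, scaRNAs and U3 copies, the median was 1.47 (21 genes). The libraries were made by different protocols and were scaled separately, so the ratio was not tested and includes these differences, whose part in it cannot be told apart. Across members, longer genes had lower ratios (r = -0.58, rho = -0.62, n = 46), and the levels themselves gave r = 0.07 and rho = 0.13. These correlations are descriptions across genes of the same libraries.

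**Figure D2:**
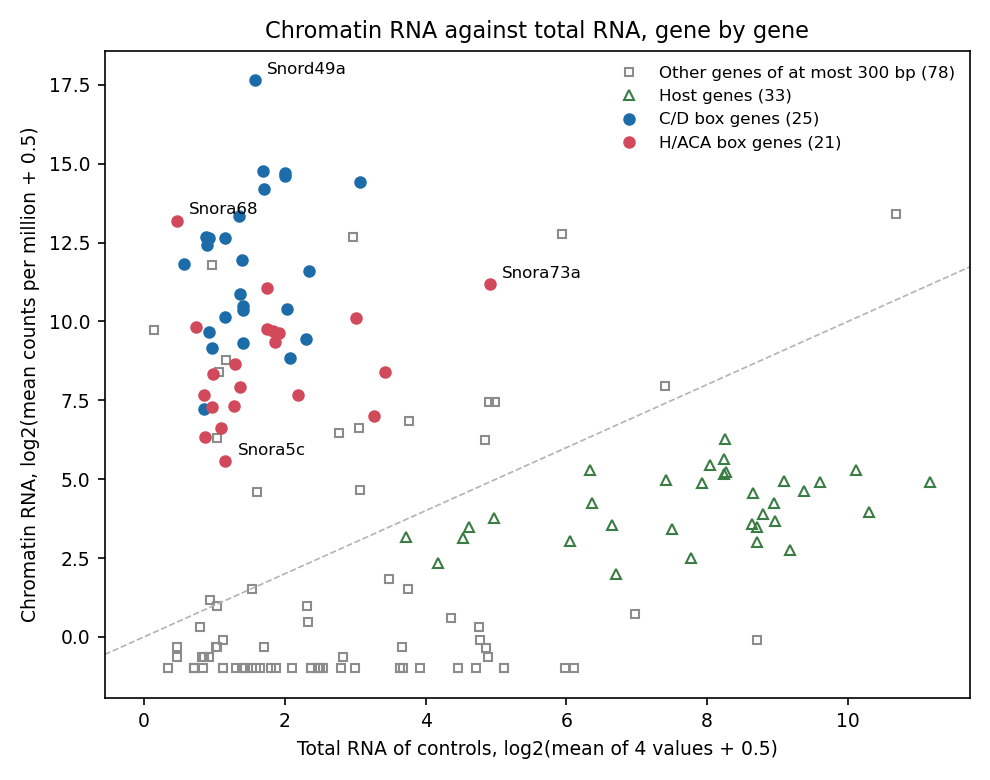
Chromatin RNA level (vertical axis, log2 of the mean CPM of 2 libraries + 0.5) against control total RNA level (horizontal axis, log2 of the mean value of 4 libraries + 0.5), 1 point per gene, for 25 C/D and 21 H/ACA box genes, 33 host genes and 78 other genes of at most 300 bp. The dashed line marks equal levels; the 46 snoRNA genes lie above it and the 33 host genes below.

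In Ssrp1 KD some snoRNA genes had higher total RNA values and none was called lower. This direction turned for part of them after a loess correction for exon length, fitted over genes of all lengths. Calls required an adjusted p below 0.01 and an absolute log2 fold change above 1 (limma across all genes). Of 46 members, 12 were called higher, 0 lower and 34 not, where 28.6% of all genes were called in either direction, 8.07% higher and 20.6% lower. Of the 25 C/D box genes 5 rose, and of the 21 H/ACA box genes 7 rose. The median log2 difference (KD minus control, on log2(value + 0.5)) was 0.42 for C/D and 0.71 for H/ACA box genes, against -0.03 for all genes, but after a loess correction for exon length these medians were -0.51 and -0.13, with 2 members called higher and 6 lower. The loess correction moved the median of all genes to 0.17, so that relative to it the class medians were -0.67 and -0.30. In that fit 1650 of all 15384 genes were called higher and 2632 lower, so calls in either direction were common beyond the members too. At an unadjusted p below 0.05, 23 of the 46 were higher and 3 lower, where 39.0% and 41.5% of all genes were. Since the table holds only genes with a value of at least 1 in 4 of 8 libraries, 14 members with fewer than 4 controls at that value entered it with the help of KD libraries, and 4 of the 12 called (Snora64, Snora33, Snord118 and Snora68) are among these. Of the 32 members with all 4 controls at or above 1, 8 were called higher. The counts over the members are therefore a description and no support for a direction. In 21 members all KD libraries lay above all controls (35.8% of all genes), in 2 all lay below (37.5% of all genes) and in 23 the groups overlapped. Other genes of at most 300 bp had 29 of 78 called higher and 3 lower, with a median of 0.63. After the loess length correction these 78 genes had 12 called higher and 14 lower, with a median of -0.20. Relative to all genes that median was -0.37, so the correction did not centre short genes. How well the loess fits at the lengths of the members was not tested, so the turned direction is a description too.

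The largest change was in Snora73a, the U17 gene. Its values were 34.7, 28.4, 21.9 and 33.2 in the controls and 174, 175, 172 and 159 in KD, a log2 difference of 2.52 ± 0.09 (SE; adjusted p = 1.41e-18). Every KD library was above every control and the groups were far apart. Reads of its near copy Snora73b may be assigned to it or lost, as above. Snora78 had 1.09, 1.38, 1.08 and 1.78 in the controls and 8.03, 7.15, 8.09 and 9.68 in KD (2.26 ± 0.21, adjusted p = 1.58e-10), again without overlap. These were the 2 members that stayed called after the loess length correction, at 1.69 and 1.40.

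Of the other H/ACA box genes, Snora64 had control values of 1.497, 1.38, 0.718 and 2.33 and KD values of 5.81, 4.69, 5.83 and 4.58. Its log2 difference was 1.59 ± 0.25 (adjusted p = 1.78e-06), and no KD library reached into the control range. Snora43 had 1.23, 2.75, 1.79 and 1.91 in the controls and 6.18, 6.04, 6.41 and 6.44 in KD (1.52 ± 0.22, adjusted p = 4.00e-07). Snora33 had 2.86, 1.89, 0.718 and 2.33 against 5.07, 6.51, 6.15 and 4.81 (1.41 ± 0.26, adjusted p = 1.73e-05). Both were separated between groups. Snora68, the leading H/ACA box gene on chromatin, had 1.63, 0.172, 0.897 and 0.821 against 2.35, 2.46, 2.65 and 2.03 (1.17 ± 0.32, adjusted p = 0.00158). In control replicate 2 its value equals 1 read, and without that library it was not called. Only 1 of its controls reaches 1, so it is in the table through the KD libraries and its difference is bound to the filter. Snora81, named here although it falls outside the naming rule, since it completes the called genes, had 5.04, 3.61, 4.84 and 2.74 against 8.65, 7.91, 8.81 and 8.35 (1.00 ± 0.18, adjusted p = 1.72e-05). It lies at the fold threshold and was lost without control replicate 2 or 4 or KD replicate 1 or 3.

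Among C/D box genes, Snord17 rose most, from 2.99, 3.61, 3.41 and 4.79 to 9.14, 12.1, 10.6 and 10.6 (1.41 ± 0.17, adjusted p = 2.54e-08). At 221 bases it is far longer than the median C/D box gene. Snord2 rose from 3.27, 2.07, 3.77 and 1.78 to 7.54, 6.98, 8.42 and 7.71 (1.39 ± 0.21, adjusted p = 8.51e-07), and Snord55 from 3.68, 2.93, 2.15 and 2.33 to 8.28, 5.51, 6.93 and 7.42 (1.21 ± 0.20, adjusted p = 4.16e-06). In these 3 genes the lowest KD library was above the highest control. Snord55 and Snord118 were not called at a pseudocount of 2 or when values were scaled to CPM of the reads on genes. Snord118 (U8), which has a promoter of its own and no host, went from 0.953, 1.20, 1.08 and 0.684 to 3.58, 2.52, 2.01 and 2.84 (1.12 ± 0.27, adjusted p = 0.000505). It too is in the table through KD libraries, since 2 of its controls reach 1. Snord96a went from 10.5, 7.23, 7.18 and 6.70 to 17.7, 16.5, 16.4 and 15.2 (1.03 ± 0.14, adjusted p = 1.50e-07). Its control replicate 1 stood apart from the others, and it was not called without control replicate 3 or 4 or KD replicate 1.

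**Figure D3:**
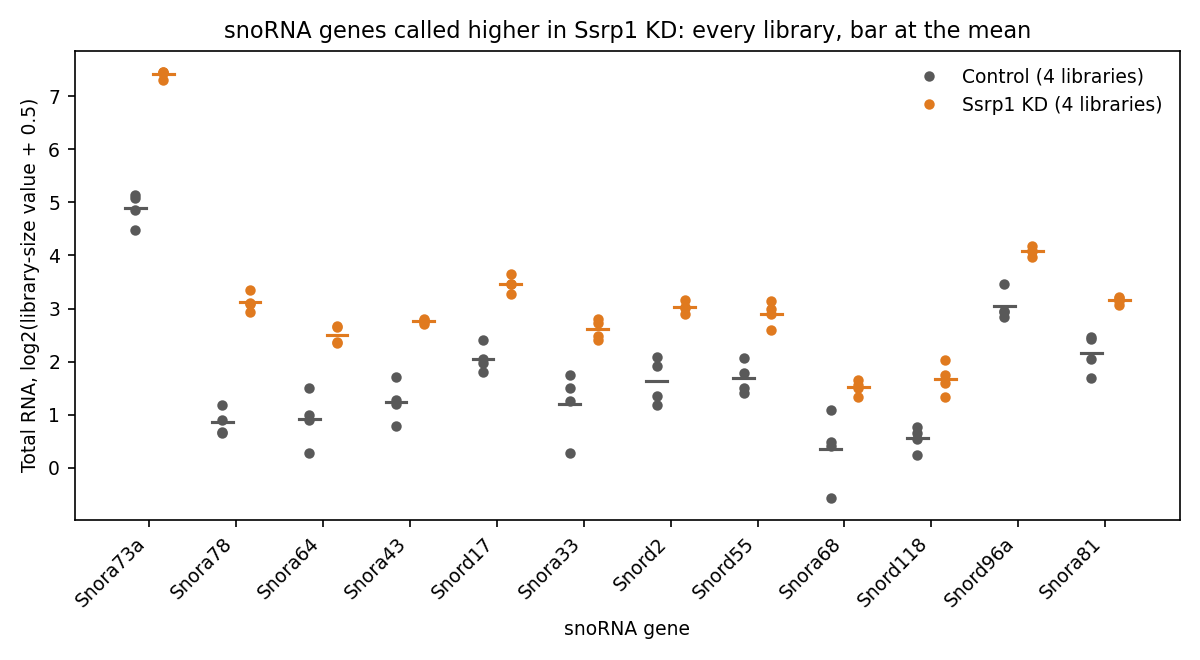
Total RNA value, as log2(library-size-normalised reads + 0.5), in each of 4 control and 4 KD libraries for the 12 snoRNA genes called higher, 1 point per library and a bar at the mean. In each of the 12 the KD points lie above the control points; 2 of the 12, Snora73a and Snora78, were still called after the loess length correction.

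No member was called lower, except Snord14d when values were scaled to CPM of the reads on genes, and those named below after the loess length correction. The lowest differences were those of Snord14d, Snora28 and Snord95. Snord14d, in an Hspa8 intron, had 2.59, 2.41, 1.26 and 2.33 in the controls and 0.371, 1.76, 1.23 and 1.16 in KD (-0.74 ± 0.31, adjusted p = 0.0315), with overlap. Snora28 had 3.27, 2.41, 3.95 and 2.60 against 2.10, 1.70, 1.75 and 1.97 (-0.56 ± 0.24, adjusted p = 0.0327), and Snord95 had 3.403, 3.27, 4.13 and 3.28 against 1.85, 2.81, 2.65 and 2.44 (-0.46 ± 0.22, adjusted p = 0.0575). In these last 2 the groups did not overlap. Snord72 (-0.21), Snora70 (-0.16), Snord4a (-0.12), Snord14e (-0.10) and Snord110 (-0.02) were near 0 relative to their errors of 0.27 to 0.34. Snora65 (0.25) and Snord104 (0.29) completed the 10 lowest. After the loess length correction, Snord14d, Snora28, Snord95, Snord72, Snora70 and Snord4a were the 6 called lower, from -1.64 to -1.02.

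Of the 10 C/D box genes highest on chromatin per kb, 6 had a total RNA value and 3 of these were called higher (Snord2, Snord55 and Snord96a), and of the 10 such H/ACA box genes there were 8 and 2 (Snora73a and Snora68). Snord49a, the highest of all, had 2.99, 1.55, 3.05 and 2.33 in the controls and 3.34, 4.34, 4.01 and 3.88 in KD (0.59 ± 0.23, adjusted p = 0.0200), and was not called although every KD library was above every control. Snord99 stood at 0.42 ± 0.23. Of the 50 members of highest chromatin count 28 had a total RNA value and 6 of these rose, and of the other 64 there were 18 and 6. By length, 1 of 15 members of at most 70 bp rose, 3 of 8 above 70 and up to 100 bp, 4 of 16 above 100 and up to 140 bp, and 4 of 7 longer ones. Among all genes 8.07% were called higher. Of the 12 calls behind these counts, 4 entered the table with the help of KD libraries and 2 stayed after the loess length correction. Across members, length and difference gave r = 0.47 and rho = 0.45 (n = 46), a description across genes that share their libraries.

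**Figure D4:**
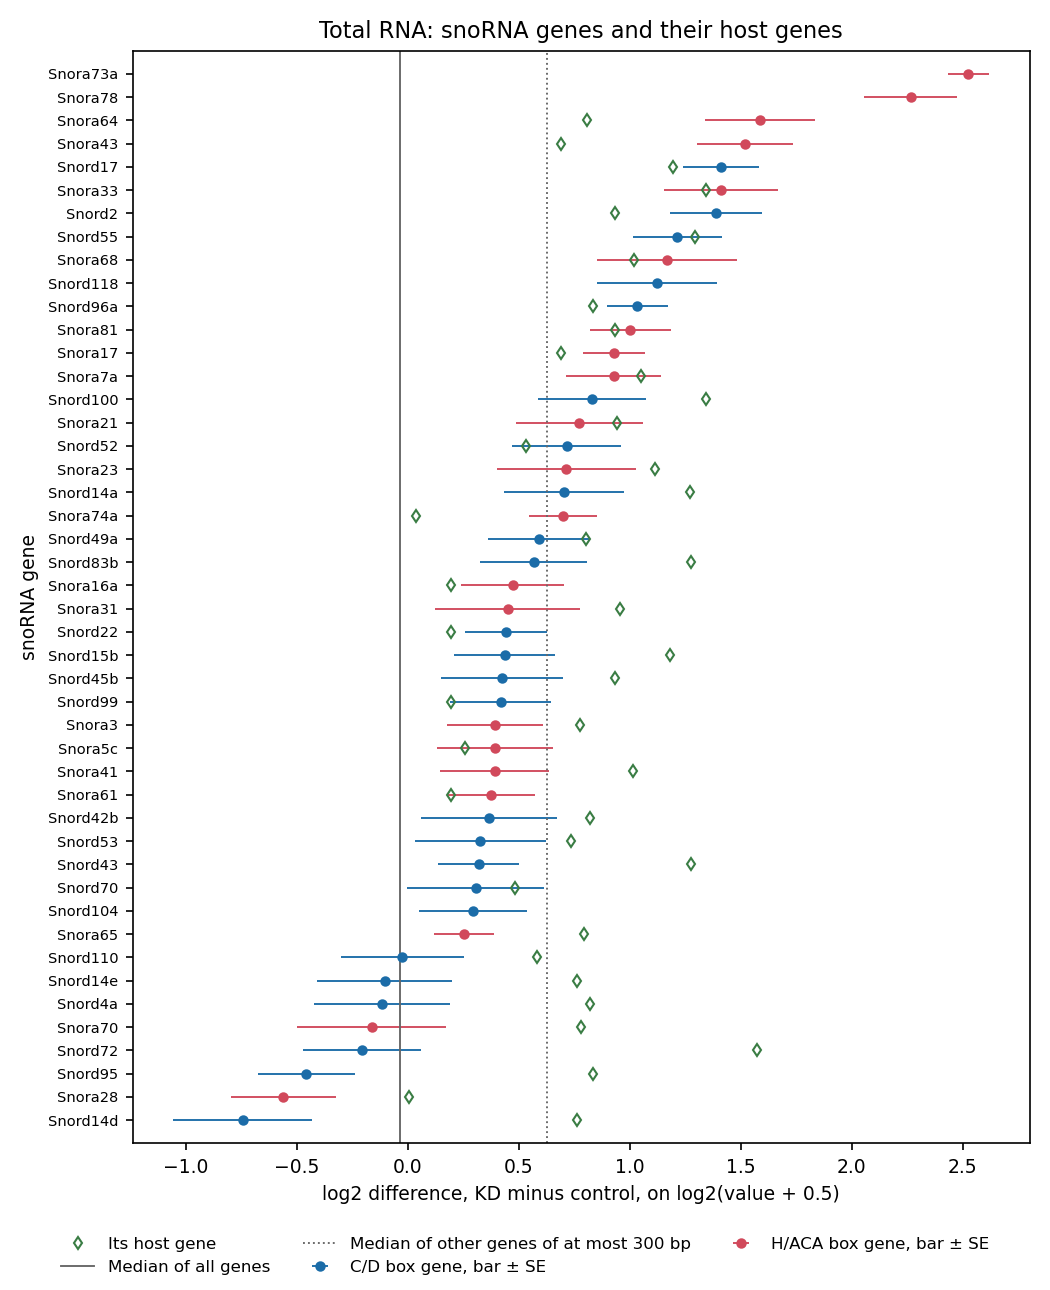
Log2 difference (KD minus control, on log2(value + 0.5)) of the 46 snoRNA genes with total RNA values, bars ± SE, with that of the host gene as a diamond, and lines at the median of all genes and of other genes of at most 300 bp. Class medians are 0.42 (C/D) and 0.71 (H/ACA) as drawn, and -0.51 and -0.13 after the loess length correction. The median of other genes of at most 300 bp is 0.63 as drawn and -0.20 after that correction.

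The host genes can be set beside the snoRNAs inside them. Of 71 host genes with a value, 19 were called higher and 0 lower, with a median log2 difference of 0.78. Among all genes 8.07% were called higher and 20.6% lower, with a median of -0.03. The loess length correction was not summarised for the host genes. For 42 members both the snoRNA and its host had a value. The member stood above its host in 16 of 42, and both were above 0 in 34. Of the 42, 4 were called higher together with the host (among them Snord17 with Snx5 and Snora33 with Rps12), 5 rose with a host that was not called, 9 were not called within a host that was, and for 24 neither was. Member and host differences gave r = 0.26 and rho = 0.32 (n = 42), in pairs where some members share a host. Rack1, a ribosomal scaffold gene at 0.83 ± 0.06, holds both Snord96a (1.03) and Snord95 (-0.46). The difference between this pair was not tested. Snord100 (0.83 ± 0.24) and Snora33 (1.41) share Rps12 (1.34), and Snora17 (0.93 ± 0.14) and Snora43 (1.52) share Snhg7 (0.69), so members of a host did not always fall on the same side of the threshold. Snora73a and Snora78 had no host value to set beside them. The counting may give reads of an unspliced host intron to the snoRNA inside it, and the sources used here do not say whether strand was used in counting, so reads from either cannot be told apart.

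The genes for proteins of the snoRNA particles were mostly not called in total RNA, where 28.6% of all genes were called in either direction. A gene not called is not an unchanged one. The 4 C/D and 4 H/ACA core genes all stood above 0. Nop56 and Nop58 missed only the fold threshold (limma adjusted p = 1.88e-10 and 7.48e-09). Of the C/D core genes, Fbl (fibrillarin, the methyltransferase) stood at 0.40, Nop56 at 0.58, Nop58 at 0.48 and Nhp2l1 at 0.47, so that 0 of 4 passed at a median of 0.47. Of the H/ACA core genes, Nop10 rose (1.40), and Dkc1 (dyskerin, the pseudouridine synthase, 0.83), Gar1 (0.68) and Nhp2 (0.45) did not pass, which is 1 of 4. Of 11 assembly factors 1 rose, Ruvbl1 (1.15), at a median of 0.47. Of 32 other short structured RNAs in the chromatin table, 21 had a total RNA value, the U3 copies left out of the members among them. Of these 21, 16 were called higher and 0 lower at a median of 1.87, where 8.07% of all genes were called higher and 20.6% lower. A log2 difference above 0 was found in 20. Scarna9 stood at -0.71 ± 0.15 (limma adjusted p = 0.000114), with every KD library below every control, and missed the fold threshold. Copies were counted singly and may share reads, so the 16 need not be separate rises. For example, Rnu1b1 and Rnu1b2 had equal control values. The loess length correction was not summarised for this list. Rmrp, the RNA of RNase MRP, went from 1117 to 2197 in the controls to 5582 to 6200 in KD (1.87 ± 0.13). Scarna10, a guide RNA of Cajal bodies, stood at 2.198 ± 0.141.

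SSRP1 peaks over snoRNA genes were mostly found near the host's start. Of 114 members, 37 (32.5%) had a SSRP1 peak over at least 1 base, with 24 of 76 C/D (31.6%) and 13 of 38 H/ACA box genes (34.2%). SUPT16 peaks lay over 25 (21.9%), and 20 had both. Over all 27179 genes 19.0% had a SSRP1 peak, over other genes of at most 300 bp 7.77%, and over the host genes 53 of 77 (68.8%). These shares carry no test, since gene length and position decide how often a peak can lie over a gene. Of the 37, 32 were covered over their whole length, and for 21 the start of the host lay in the same peak. By distance from the host's start, the share was 16 of 22 (72.7%) up to 1 kb, 8 of 23 from 1 to 2 kb, 10 of 36 from 2 to 5 kb and 1 of 26 (3.85%) beyond 5 kb. The peaks were called on both replicates together, so they have no replicate spread.

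**Figure D5:**
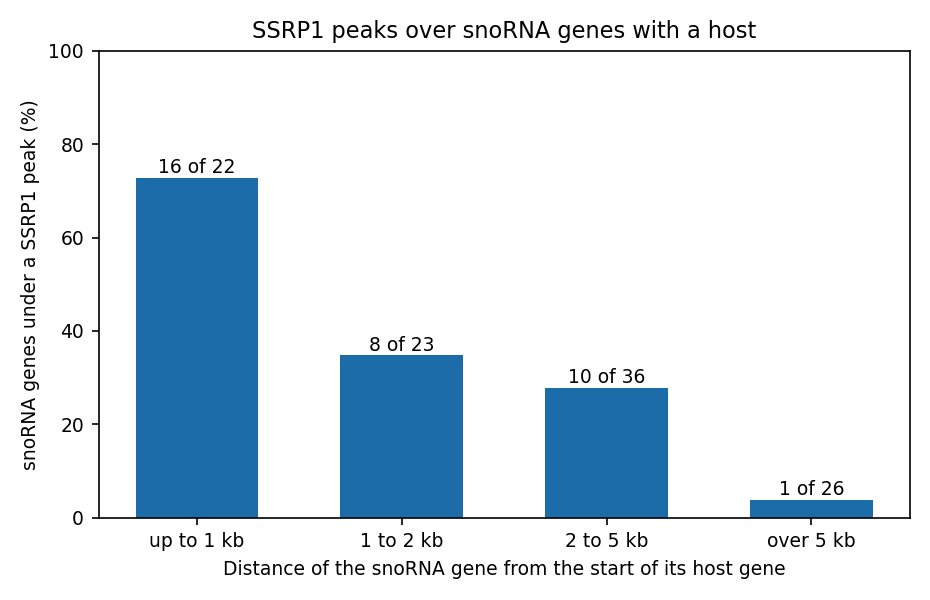
Share of snoRNA genes with a SSRP1 peak over the gene, by distance of the gene from the start of its host, with the number of genes in each group. The share is 72.7% up to 1 kb and 3.85% beyond 5 kb.

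Snord49a, Snord65 and Snord49b lie together under 1 SSRP1 peak of 4410 bp that also covers the start of 2410006H16Rik, and all 3 are under SUPT16 peaks too. Snord2 lies under a SSRP1 peak of 2450 bp that reaches the start of Eif4a2. Snora68 lies under one of 7546 bp and under no SUPT16 peak, the nearest being 4 bp away. Members under a SSRP1 peak had a median of 2127 CPM on chromatin, and the others 318. Of the 23 members with a peak and a total RNA value, 9 rose in KD at a median log2 difference of 0.77, and of the 23 without a peak 3 rose at a median of 0.39. Over all genes 8.07% were called higher. Snora64, Snora68 and Snord118 of the 9, and Snora33 of the 3, entered the total RNA table with the help of KD libraries. Only Snora73a and Snora78, both under a peak, stayed called after the loess length correction. These counts are a description, and a link between peak and rise was not tested. The distance from the host's start also differed (medians of 1262 bp with a peak and 2940 bp without), and its part was not tested.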

How the data were processed

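Per the labels and the study's methods, the authors aligned reads with STAR (2.4.1b and 2.5.1b in the submitters' processing notes) to mm10 and counted them on genes with featureCounts, and the sources used here do not say whether strand was used. The deposited chromatin RNA values are whole read counts per gene. The deposited total RNA values are a signal, namely reads scaled to library size by the authors after genes at or below 1 CPM were removed. Each was a whole multiple of the worth of 1 read (tolerance 0.1) in 100% of values, and reads were recovered from this for alternatives. The sums of these values differ between control and KD libraries (closing section). The authors' peak positions (Bowtie2 2.2.6) were taken as deposited, with a peak lying over a gene from 1 shared base. Whether they count from 0 or 1 is not stated. Tables of the authors' own fold changes and p-values, for genes and for exons, were not used.

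The fit was limma 3.58.1 (trend) in R 4.3.3 on log2(value + 0.5) over 15384 genes, 4 control against 4 KD libraries, with Benjamini-Hochberg adjustment. A call required an adjusted p below 0.01 and a log2 fold change beyond 1 in size. Alternatives were the count tests of edgeR 4.0.16 and DESeq2 1.42.0 on the recovered reads, different pseudocounts, filters and scalings, a loess correction for exon length (span 0.3) and leaving out each library. The limma, edgeR and DESeq2 fits were tested on simulated data in which only genes above a least expected read count were changed. That test does not cover members of few reads, such as Snora68, and the other steps were not tested this way. Sequences came from RefSeq GRCm38.p6 (Python 3.11.15, pysam 0.24.0), pairs were aligned with Biopython 1.88, and oligonucleotides were read from the study's supplementary list.

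Named genes were the 10 largest rises and 10 largest falls, the 10 most abundant per class on chromatin per kb, and members with a depletion oligonucleotide. Members and lists were chosen with earlier results of these data known. No duplicate libraries were found, and the replicate numbers were checked for pairing (closing section). Depth limits the values: 1 read is worth 0.136 to 0.179 in a control and 0.058 to 0.124 in a KD library. Intervals and limits cover counting error only. Of 28 samples in the series, 10 libraries and the peak lists were used. Some host genes and a sequence are not reported here.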

Additional observations from a re-analysis of the deposited data

Results flagged for a closer look

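In 3 of the 62 groups of 4 libraries tested (31 members), 1 library lay apart from the other 3 by Dixon's criterion at the 95% level. At that level chance flags about 1 in 20 groups, which is 3.1 here. Snord96a had 10.5 in control replicate 1 against 7.23, 7.18 and 6.70 in the other controls. Snora7a had 1.61 in control replicate 3 against 3.27, 3.44 and 3.15, and it was not called. Snord95 had 4.13 in control replicate 3 against 3.403, 3.27 and 3.28. Without the libraries named, Snord96a and Snord95 were on the same side of the threshold as with them.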

How the results depend on the processing

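The 12 calls were made by limma, edgeR and DESeq2, the last with Snora7a in addition. Calls numbered 6 at a pseudocount of 2 (without Snora33, Snora68, Snora81, Snord118, Snord55 and Snord96a), 5 among the 10 members with a mean of at least 5 (a filter that removes Snora33, Snora43, Snora64, Snora68, Snora78, Snord118 and Snord55), 38 with spike-in scaling, 37 with quantile normalisation, 8 (2 higher, 6 lower) with the loess length correction, and 8 (7 higher, without Snora68, Snora81, Snord118, Snord55 and Snord96a, and Snord14d lower) as CPM of the reads on genes, an alternative added after seeing the data. Leaving out 1 library gave 10 to 14, and 9 of the 12 were called each time. The C/D median was 0.30 at a pseudocount of 2, 1.03 for genes with a mean of at least 5, 1.33 with spike-ins, 0.049 as CPM, 1.39 with quantile normalisation and -0.51 with loess (0.36 to 0.54 leaving out a library). The H/ACA median was 0.93 at a pseudocount of 0.1, 0.44 at 2, 0.93 for a mean of at least 5, then 1.54, 0.38, 1.43 and -0.13 in the same order of scalings (0.64 to 0.85 leaving out a library). The median of all genes moved to 0.95 with spike-ins and -0.45 as CPM. Relative to it the class medians were 0.38 and 0.58 with spike-ins, and 0.50 and 0.83 as CPM. Over all genes, 7394 were called higher and 1082 lower with spike-ins, against 1242 and 3163. With the loess length correction these counts were 1650 and 2632. The library-size values of a library summed to 825584 to 909417 in the controls and 1137293 to 1182584 in KD. CPM of the reads on genes instead sets each sum to 1000000, which lowers KD relative to control values for every gene. A fit with TMM factors gave 12 calls and a C/D median of 0.42. Other causes of these shifts were not tested, beyond the fewer genes that the filter leaves.

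Without the 10 genes of highest count the chromatin shares were 52.6% (C/D) and 7.87% (H/ACA), and without mitochondrial and ribosomal RNA genes C/D was 68.8%. They ranged from 58.4 to 60.4% and 1.88 to 3.00% by library. The chromatin over control median was 8.59 and 7.72 at pseudocounts of 0.1 and 2, 8.71 over genes of both tables, and 8.18 to 8.51 leaving out a library. Peaks of both subunits lay over 20 members. Of 384 values for 20 named genes, 329 kept both the sign and the called or not called state, whatever their size. Another 29 changed sign without a call in either fit, 10 gained the call and 16 lost it. Same-numbered libraries did not deviate together (correlations of -0.057 to 0.018), so the numbers do not pair them, and a fit with a replicate block gave 12 calls and medians of 0.42 and 0.71. Depth limits single libraries of the lowest members, such as Snora68 at 1 read in control replicate 2.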
